A study of Mus musculus with 4 samples.

Results

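Glycolysis was followed here through 10 mouse genes, chosen as a fixed list of Ensembl IDs out of the 53465 IDs counted. They were the glucose transporter gene Slc2a1, the enzyme genes Hk2, Aldoa, Tpi1, Gapdh, Pgk1, Pgam1, Eno1 and Pkm, and Ldha. All 10 passed the filter on low counts (a mean of at least 1 CPM, reads scaled to a common library size), as did 12920 genes in all. RNA came from Hepa 1-6 cells, a mouse hepatocellular carcinoma line, carrying either a control guide (genotype WT in the labels) or a guide for Usp5 (labelled a knockdown). Usp5 encodes a deubiquitinating enzyme. From each, 1 library was made from lysate (input) and 1 from RNA recovered with an antibody to YTHDF1 (RIP), which gave 4 groups of 1 library each. Neither drug treatment nor time points are given in the labels, and whether the cells are a clone or a pool is not given in the sources used here.

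Glycolysis breaks glucose down to pyruvate in the cytosol and yields ATP, and lactate dehydrogenase turns pyruvate into lactate while regenerating the NAD+ that the pathway consumes. Tumour cells, hepatoma cells among them, often run it at a high rate even with oxygen at hand. YTHDF1 is a cytoplasmic reader protein that binds mRNA carrying N6-methyladenosine and is known for effects on translation. RIP over input therefore measures how much of a transcript was recovered with the antibody relative to its abundance in the lysate. The title of the series says that USP5 stabilises YTHDF1, and the comparisons ask which RNAs the antibody recovered and whether the Usp5 guide altered this.

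The libraries held between 29898171 and 33941019 counts. With 1 library per group there was no replicate check of a single ratio, no SD could be given and no p-value was computed for it. Log2 ratios carry 95% counting intervals, which cover counting error only: no molecular identifiers are described, so PCR copies of a cDNA count as separate reads. The spread over genes of like abundance is given beside them: the 1722 genes at a mean log2 CPM of 7 or more, called well-expressed genes below, which include all members but Slc2a1 (6.03). The files list IDs without names, so the levels of Usp5 and Ythdf1, which would check the labels, and hepatocyte markers and the other genes of the pathway were not analysed here.

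The genes lie on 6 chromosomes (mouse genome GRCm38.p6, which is mm10). Slc2a1 (chr4:119108745-119137330) and Eno1 (chr4:150236708-150248879) share chromosome 4. Hk2 (chr6:82725025-82774454), Tpi1 (chr6:124810586-124814158) and Gapdh (chr6:125161852-125166467) share chromosome 6. Ldha (chr7:46842274-46855627) and Aldoa (chr7:126795234-126800994) share chromosome 7. Pkm (chr9:59656576-59679372), Pgam1 (chr19:41911871-41918665) and the X-linked Pgk1 (chrX:106187100-106203699) each lie alone. Counts of several of them can share reads with copies elsewhere. RefSeq lists 21 pseudogenes whose names or synonyms derive from 6 of the members: 7 from Tpi1, 3 each from Aldoa, Gapdh, Pgk1 and Ldha, and 2 from Pgam1. It also lists Eno1b, a protein-coding copy with Eno1 among its synonyms. Copies under other names are not in these numbers, and since the count table was not paired with names, reads assigned to copies were not measured.

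Many glycolysis genes are known targets of the hypoxia-inducible factor HIF-1, whose binding sites often hold ACGTG. The 250 bases before each annotated start (RefSeq, GRCm38.p6) were searched for ACGTG on both strands, where it reads ACGTG or CACGT. It was found for 7 of the 10 members (8 of their 16 windows), beside 18.5% of 27025 genes and 16.6% of 32851 windows. That background was not matched to the members for abundance, base content or windows per gene, and the difference was not tested. Aldoa has overlapping windows, and the same site (chr7:126799363-126799392) is counted in windows 2 and 3. The matches of Aldoa, Pkm and Ldha lie inside the gene spans given above, before annotated starts within them. Tpi1, Gapdh and Eno1 had no match to ACGTG in their windows, and other forms of the site were not searched. Stretches of 30 bases from 5 members, in which capitals mark the matches, are given as examples of the matched sequences. A match is a description of the sequence, and binding of the factor was not measured.
Slc2a1 (chr4:119108697-119108726, plus strand): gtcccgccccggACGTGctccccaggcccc
Hk2 (chr6:82774489-82774518, minus strand): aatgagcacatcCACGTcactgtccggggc
Pgk1 (chrX:106186947-106186976, plus strand): aggACGTGacaaatggaagtagCACGTctc
Pgam1 (chr19:41911745-41911774, plus strand): cgctccttgcttACGTGcgctccgtgactg
Ldha (chr7:46845751-46845780, plus strand): gcctaCACGTGggttcccgCACGTccgctg

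Ldha had the most matches of these stretches, 3, because its palindromic CACGTG counts on both strands. Pgk1 held 2, in opposite orientations.

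Together the 10 genes took 0.480% of counts in the control input (95% Clopper-Pearson interval 0.478 to 0.482) and 0.501% in the Usp5 input (0.499 to 0.504). They took 0.443% in the control RIP (0.441 to 0.446) and 0.370% in the Usp5 RIP (0.368 to 0.372). Their share was thus lower in either RIP library than in its input, and lowest in the RIP from cells with the Usp5 guide. The levels below are CPM scaled by TMM factors. They are compared between libraries for 1 gene at a time, not between genes, because transcript lengths were not used here.

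**Figure D1:**
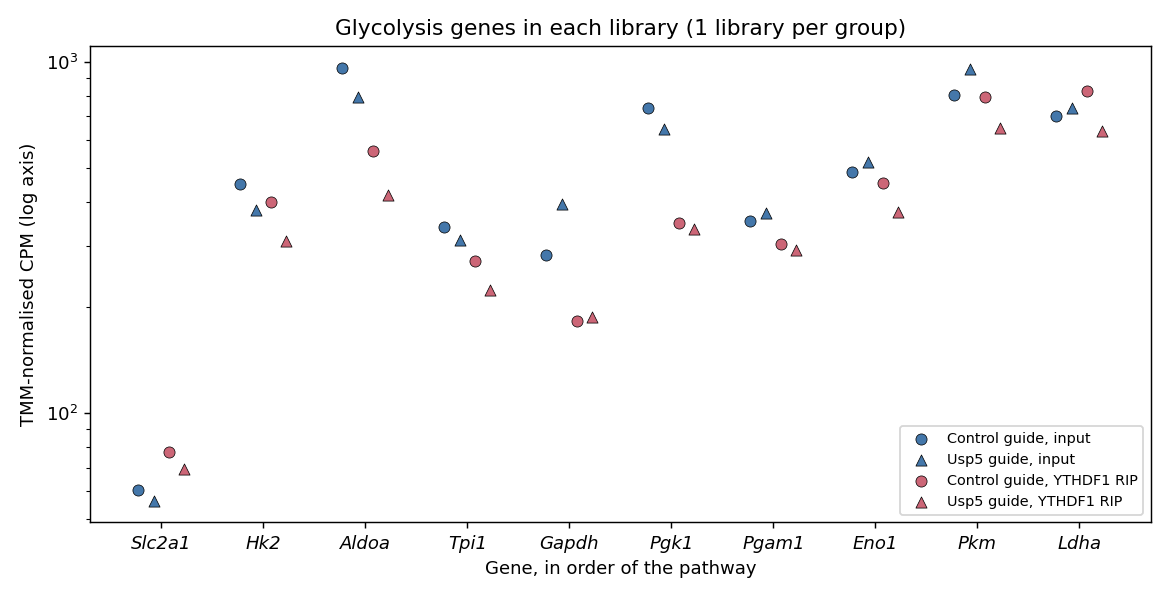
TMM-normalised CPM (log axis) of the 10 glycolysis genes in the 4 libraries; circles are control-guide and triangles Usp5-guide cells, blue is input and red is RIP, and each point is 1 library. Red points lie below blue points for 7 genes (Aldoa, Tpi1, Gapdh, Pgk1, Pgam1, Eno1 and Pkm), with Pgk1 at 741 and 646 CPM in the inputs and 349 and 334 CPM in the RIP libraries.

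Glucose uptake and its first phosphorylation came first. Slc2a1 (ENSMUSG00000028645), which encodes the glucose transporter GLUT1, was at 60.6 CPM in the control input, 56.4 in the Usp5 input, 77.4 in the control RIP and 69.2 in the Usp5 RIP. Both RIP values lay above both inputs, the only member for which this held. The log2 ratio of RIP over input was 0.35 (counting interval 0.27 to 0.44) with the control guide and 0.30 (0.20 to 0.39) with the Usp5 guide. Hk2 (ENSMUSG00000000628), the hexokinase that traps glucose in the cell as its phosphate, was at 448 and 378 CPM in the control and Usp5 inputs and at 400 and 309 CPM in the control and Usp5 RIP. Each library from cells with the Usp5 guide lay below its control, and the input and RIP ranges overlapped. For Hk2 the log2 ratio was -0.16 with the control and -0.29 with the Usp5 guide.

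The genes of the middle steps are given next, with Aldoa, Gapdh and Pgk1 the 3 members of lowest RIP over input in either line. Aldoa (ENSMUSG00000030695), the aldolase that splits the hexose into trioses, was at 964 and 797 CPM in the control and Usp5 inputs and at 559 and 419 CPM in the RIP libraries. Both RIP values lay below both inputs. Its log2 RIP over input was -0.79 (-0.81 to -0.76) with the control guide, or 1.72-fold lower, and -0.93 (-0.96 to -0.90) with the Usp5 guide, or 1.90-fold lower. Tpi1 (ENSMUSG00000023456), the isomerase that interconverts the trioses, was at 339 and 312 CPM in the inputs and at 272 and 224 CPM in the RIP libraries. Here too the RIP libraries lay below the inputs, but the ratios were smaller, at -0.32 and -0.48.

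Gapdh (ENSMUSG00000057666), the dehydrogenase that reduces NAD+, was at 283 CPM in the control input and 394 CPM in the Usp5 input. In the RIP libraries it was at 183 and 188 CPM. The inputs differed while the RIP libraries were close, so that its log2 RIP over input went from -0.63 (-0.68 to -0.58) with the control guide to -1.07 (-1.11 to -1.02) with the Usp5 guide, 2.10-fold lower. Pgk1 (ENSMUSG00000062070), the kinase that makes the first ATP of the pathway, was at 741 and 646 CPM in the inputs and at 349 and 334 CPM in the RIP libraries. Its RIP values were close to each other and far below both inputs. For Pgk1 the log2 ratio was -1.08 (-1.12 to -1.05), 2.12-fold lower, with the control guide and -0.95 (-0.99 to -0.92) with the Usp5 guide.

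Of the last steps, Pgam1 and Eno1 were below an equal level in both lines, and Pkm was near it with the control guide. Each had a lower ratio under the Usp5 guide. Pgam1 (ENSMUSG00000011752), a mutase, was at 352 and 371 CPM in the control and Usp5 inputs and at 304 and 291 CPM in the RIP libraries, a narrow range in which the RIP libraries were the lower ones. Eno1 (ENSMUSG00000063524), an enolase, was at 485 and 518 CPM in the inputs and at 451 and 374 CPM in the RIP libraries. The Usp5 RIP was the low library for both. Pkm (ENSMUSG00000032294), the pyruvate kinase that makes the second ATP, was at 805 and 958 CPM in the inputs and at 793 and 648 CPM in the RIP libraries. It was highest in the Usp5 input and lowest in the Usp5 RIP. With the control and Usp5 guides, the log2 ratio of RIP over input was -0.21 and -0.35 for Pgam1 and -0.10 and -0.47 for Eno1. For Pkm it was -0.02 and -0.56, and the counting interval of the former (-0.05 to 0.00) reached no difference.

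Ldha (ENSMUSG00000063229), the lactate dehydrogenase subunit typical of glycolytic tissue, was at 704 and 741 CPM in the control and Usp5 inputs. In the RIP libraries it was at 829 and 636 CPM. The control RIP was the highest of the 4 libraries and the Usp5 RIP the lowest, so the inputs lay between them. The ratio of RIP over input was accordingly 0.24 (0.21 to 0.26) on the log2 scale with the control guide and -0.22 (-0.25 to -0.19) with the Usp5 guide.

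In the comparison of RIP with input in control cells, 2 members were above and 8 below an equal level, with a median log2 ratio of -0.19. The median was 0.03 over the 12920 genes compared, of which 48.7% were below, and -0.17 over the well-expressed genes, of which 58.5% were. A ratio was called when it reached 2-fold with a counting interval that excluded no difference. Pgk1 was the 1 of 10 members called lower, where 15.0% of all genes and 12.3% of the well-expressed ones were, and 0 of 10 were called higher, where 18.4% of all genes were. In cells with the Usp5 guide, 1 member was above and 9 were below, as were 49.0% of all genes and 57.0% of the well-expressed ones. The members' median was -0.47 in these cells, beside 0.02 over all genes and -0.12 over the well-expressed genes. There Gapdh was the 1 of 10 called lower (13.7% of all genes, 9.06% of the well-expressed ones), and 0 of 10 were called higher (15.9%). The shares called at 2-fold are near the background and say nothing particular about the members. At 1.5-fold the members called lower were Aldoa, Gapdh and Pgk1 in either line, 3 of 10 beside 26.6% of all genes with the control and 25.0% with the Usp5 guide.

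Both RIP libraries lay below both inputs for 7 of 10 members, as for 29.9% of all genes and 48.3% of the well-expressed ones, and above them for 1 (Slc2a1), as for 32.0% of all genes. No member lay outside the 5th to 95th percentile of the well-expressed genes in either line (-1.33 to 1.01 with the control and -1.12 to 0.95 with the Usp5 guide). Scaling by library totals in place of TMM moved the median log2 ratio of all genes from 0.03 to 0.21 in control cells and from 0.02 to 0.15 in cells with the Usp5 guide. It took Pgk1 in control cells to -0.90 and Gapdh in cells with the Usp5 guide to -0.94, both under 2-fold, and turned the control ratios of Hk2, Eno1 and Pkm to 0.02, 0.08 and 0.16. With library totals Eno1 and Pkm thus no longer had both RIP libraries below both inputs, so the 7 of 10 depends on the scaling. Recovery by the antibody and by the beads cannot be told apart, as no precipitate without the antibody was analysed here.

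**Figure D2:**
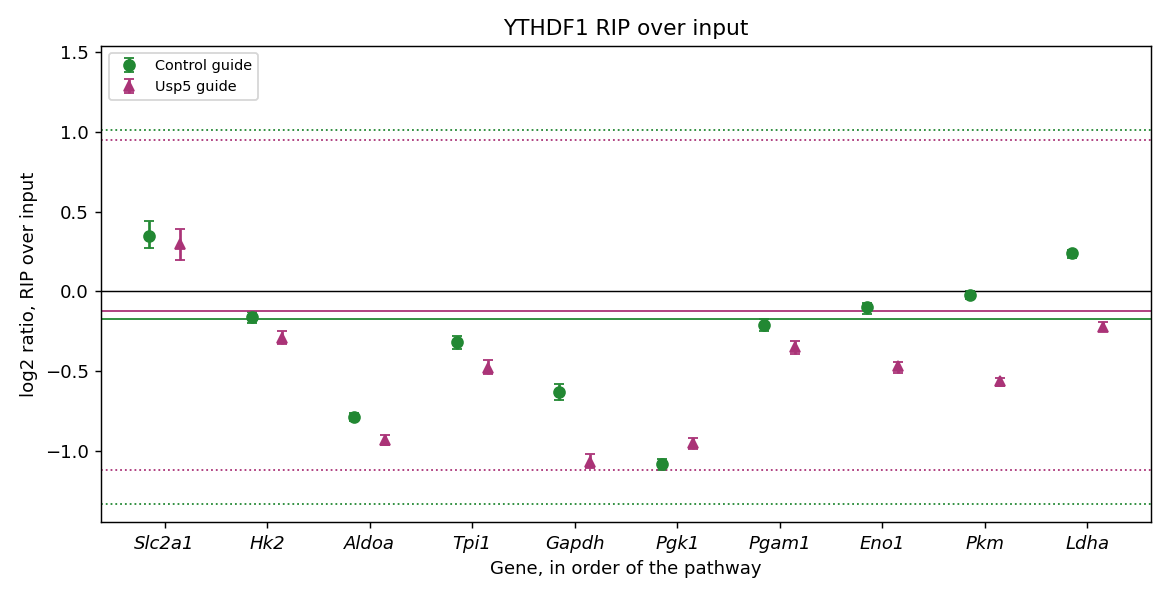
Log2 RIP over input of each gene in control-guide cells (green circles) and Usp5-guide cells (purple triangles), with 95% counting intervals as bars; solid lines mark the median and dotted lines the 5th and 95th percentiles of the 1722 well-expressed genes in the same colours. Aldoa, Gapdh and Pgk1 sit between -0.63 and -1.08 in both lines, while Slc2a1 is above 0 in both.

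RIP against input was tested over both lines, the one contrast with 2 libraries on each side (edgeR's quasi-likelihood test with the line as a block, 1 residual degree of freedom). At a Benjamini-Hochberg adjusted p under 0.05, 3 of 10 members were called lower in the RIP, where 11.3% of all genes and 33.0% of the well-expressed ones were, and 0 of 10 higher, where 10.2% and 21.4% were. The members' share called lower was thus near that of genes of like abundance and shows nothing particular to them. The members called lower were Pgk1 (log2 ratio -1.02, edgeR adjusted p = 4.83e-04), Aldoa (-0.86, adjusted p = 8.10e-04) and Gapdh (-0.85, adjusted p = 0.00348), each lower in 2 of 2 lines. Tpi1 was lower in 2 of 2 lines without passing the test (-0.40, edgeR adjusted p = 0.0589). For Tpi1 the adjusted p ranged from 0.0194 to 0.247 over 7 alternative settings and passed in 2 of them; in 1 of these, a fit limited to genes at a mean log2 CPM of 5 or more, 29.1% of the genes were called lower. The other members had log2 ratios between -0.29 and 0.32 and adjusted p between 0.156 and 0.977. The lines are the control and Usp5 guides, not repeats of 1 condition, so the error of this test contains any effect of the guide on recovery.

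Differences between members within the same libraries do not depend on how libraries are scaled. The log2 ratio of RIP over input of Ldha exceeded that of Pgk1 by 1.32 with the control and by 0.73 with the Usp5 guide. Slc2a1 exceeded Pgk1 by 1.44 and 1.25, and Pkm exceeded Aldoa by 0.76 and 0.36. Transcripts of a single pathway thus differed in recovery by up to 1.44 on the log2 scale. Over the 10 members the ratios of the lines, which share no library, had a Pearson's r of 0.881 and a Spearman's rho of 0.806, beside 0.917 and 0.913 over the 1722 well-expressed genes. Within a library all members share its depth and preparation, and genes are not replicates.

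**Figure D3:**
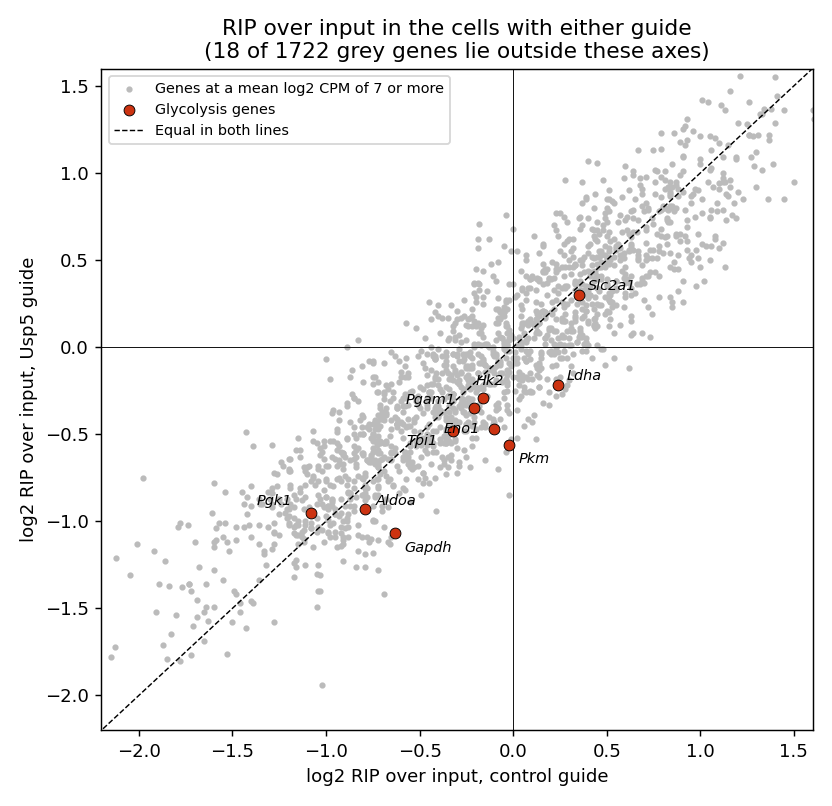
Log2 RIP over input with the control guide (x axis) against the Usp5 guide (y axis); red points are the 10 glycolysis genes, grey points the 1722 genes at a mean log2 CPM of 7 or more, 18 of which lie outside the axes, and the dashed line marks equal ratios. All members but Pgk1 lie below the dashed line, with Pkm, Ldha, Gapdh and Eno1 farthest from it.

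The Usp5 guide was then set against the control guide in the inputs, which asks about RNA abundance. Of the 10 members, 5 were higher and 5 lower, where 50.4% of all genes and 58.1% of the well-expressed ones were lower. The members' median log2 ratio was -0.01, the same as over all genes (-0.01), and it was -0.05 over the well-expressed genes. None of the 10 was called at 2-fold, where 24.5% of all genes were. That share takes in genes of far lower abundance than most members, and it was not counted for the well-expressed genes. Their 5th to 95th percentile was -0.51 to 0.39, so the 0 called does not show that the members were steadier than genes of like abundance. Gapdh stood highest at 0.48 (0.44 to 0.52), 1.39-fold, and was the 1 member above the 95th percentile of the well-expressed genes (0.39). Pkm followed at 0.25 (0.23 to 0.28). Aldoa was lowest at -0.27 (-0.30 to -0.25), then Hk2 at -0.24 and Pgk1 at -0.20. The well-expressed genes spread with an SD of 0.29 between the inputs, so that all members but Gapdh lay within 1 SD of no difference. Bulk lysates were measured, in which fewer cells expressing a gene and less RNA per cell cannot be told apart. Whether Gapdh differs beyond the variation between cultures was not tested.

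Between the RIP libraries the members lay to one side. With the Usp5 guide 9 of 10 were lower, with a median log2 ratio of -0.27, beside -0.01 over all genes, of which 50.7% were lower, and 0.00 over the well-expressed genes, of which 50.9% were lower. None of the 10 reached the 2-fold call (9.19% of all genes). The share was not counted for the well-expressed genes, whose 5th to 95th percentile was only -0.31 to 0.31. Aldoa was lowest at -0.42 (-0.45 to -0.38), followed by Ldha at -0.38 (-0.41 to -0.36) and Hk2 at -0.37 (-0.41 to -0.33). These 3 were below the 5th percentile of the well-expressed genes (-0.31). Pkm (-0.29), Tpi1 (-0.28) and Eno1 (-0.27) lay just above it, and Slc2a1 was at -0.16. Pgk1 (-0.07) and Pgam1 (-0.06) were near no difference, and the interval of Gapdh at 0.04 (-0.02 to 0.09) included it. The SD of the well-expressed genes was 0.20 here. Fewer transcripts bound and fewer transcripts present cannot be told apart from RIP counts alone. Hk2 and Aldoa were also lower in the Usp5 input, whereas Ldha, Pkm and Eno1 were higher there.

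**Figure D4:**
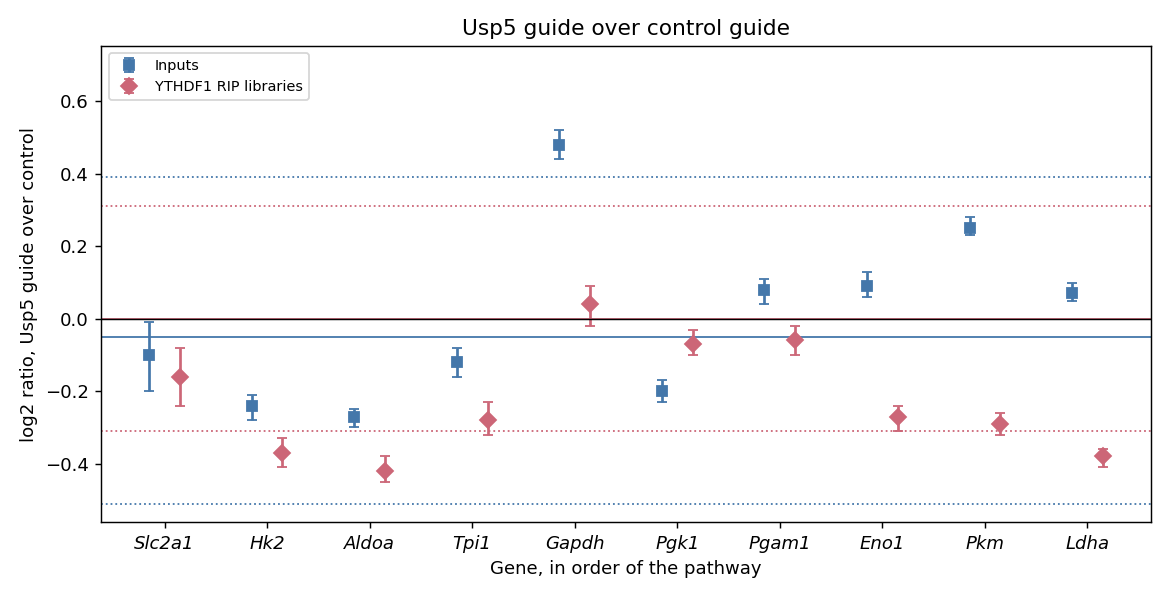
Log2 ratio of the Usp5 guide over the control guide in the inputs (blue squares) and in the RIP libraries (red diamonds), with 95% counting intervals as bars; solid lines mark the median (the red one coincides with the line at 0) and dotted lines the 5th and 95th percentiles of the 1722 well-expressed genes. Red diamonds of 9 genes lie below 0, while the blue squares are split 5 to 5.

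The change of recovery with the guide is the difference between the log2 RIP over input of the lines. Because libraries were scaled to each other, a change in recovery shared by most genes would not show. Values near 0, here and between the RIP libraries, therefore mean no shift relative to other genes, not an unchanged amount recovered. The change was negative for 9 of 10 members, where 50.3% of all genes and 44.4% of the well-expressed ones were negative. Its median was -0.15 over the members (-0.01 over all genes, 0.04 over the well-expressed genes). At 2-fold 0 of 10 passed, where 27.1% of all genes did. That share takes in genes of far lower abundance than most members. For the well-expressed genes it was not counted, but their SD was 0.31 and their 5th to 95th percentile -0.43 to 0.53. The 0 of 10 therefore does not show that the members changed less than genes of like abundance. Pkm had the largest difference at -0.54 (-0.58 to -0.51), followed by Ldha at -0.46 (-0.49 to -0.42), Gapdh at -0.44 (-0.51 to -0.38) and Eno1 at -0.37 (-0.41 to -0.32). Pkm, Ldha and Gapdh were below the 5th percentile of the well-expressed genes (-0.43). Hk2, Aldoa, Tpi1 and Pgam1 lay between -0.13 and -0.16, the interval of Slc2a1 at -0.06 (-0.18 to 0.07) included no difference, and Pgk1 was at 0.13 (0.08 to 0.18). For Gapdh the difference lay in the inputs (0.48, beside 0.04 between the RIP libraries), for Ldha mostly in the RIP libraries (-0.38, beside 0.07), and for Pkm about evenly in both (-0.29 and 0.25). This difference uses all 4 libraries, and no library repeats any of them. The 9 of 10 here, the 9 of 10 lower between the RIP libraries and the 9 of 10 below input with the Usp5 guide all contain the 1 Usp5 RIP library. These counts are therefore not independent of each other.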

How the data were processed

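The members and lists were chosen with earlier results of these data known, although the rule for members uses no measured value. The authors deposited raw read counts per Ensembl gene ID. Per the submitters' processing notes, HISAT2 2.1.0, featureCounts 1.6.3 and genome mm10 were used; how strand, duplicate and multi-mapped reads were handled is not given in the sources used here. Per the labels' protocols, 10% of lysate served as input, and RNA was fragmented, depleted of ribosomal RNA and amplified by PCR after random priming.

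Counts were scaled with TMM (edgeR 4.0.16, R 4.3.3; factors 0.926, 0.969, 1.05 and 1.06 for control input, Usp5 input, control RIP and Usp5 RIP). Genes were kept when their CPM by library totals averaged 1 or more, and 0.5 counts were added before log2. Intervals are exact binomial (Clopper-Pearson) ones for the reads of either library among those of both; for the change of recovery they come from the sum of reciprocal counts. A count of 0 would allow up to 3 counts, but no member had one. The edgeR code was tested on simulated data. All 10 members were named whatever their values. Their names come from the list that defined them; the reference (49997 genes) paired 0 IDs, so the lists of other glycolysis, regulator, gluconeogenesis and marker genes were not analysed. Alternatives included DESeq2 1.42.0, other scaling, filters and thresholds.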

Additional observations from a re-analysis of the deposited data

Results flagged for a closer look

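In 4 genes the ratio pointed in opposite directions in groups under the same contrast, with both counting intervals off 0. Each group held 1 library, and these differences were not tested. How many of all genes meet this rule was not counted, so the 4 cannot be called particular to the members. Over the 1722 well-expressed genes the guide ratios in the inputs and in the RIP libraries had a Pearson's r of 0.261. Log2 RIP over input of Ldha was 0.24 with the control guide and -0.22 with the Usp5 guide. The Usp5 guide over control was above 0 in the inputs and below 0 in the RIP libraries for Pkm (0.25 and -0.29), Ldha (0.07 and -0.38), Eno1 (0.09 and -0.27) and Pgam1 (0.08 and -0.06). For Pgam1 both values were within 0.08 of no difference.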

How the results depend on the processing

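With library totals in place of TMM, the members called lower at 2-fold went from 1 to 0 in control cells and from 1 to 0 in cells with the Usp5 guide. The members' median log2 ratio went from -0.19 to -0.01 (control RIP over input), from -0.47 to -0.34 (Usp5 guide RIP over input), from -0.01 to 0.05 (inputs) and from -0.15 to -0.20 (change of recovery). DESeq2 size factors moved the control median to -0.23. A 1.5-fold threshold gave 3 members lower in either line. Library totals changed the sign of 3 of 50 member ratios (Hk2, Eno1 and Pkm in control RIP over input), and DESeq2 size factors, upper-quartile factors and 2 counts added changed 0 of 50. Pgk1, Aldoa and Gapdh were called lower under each alternative with edgeR, including no replicate block. An edgeR fit with a filter of 5 on the mean log2 CPM also called Tpi1 (edgeR adjusted p = 0.0194), and called 29.1% of its genes lower. The DESeq2 test called Tpi1 too (DESeq2 adjusted p = 0.0423), with 1476 of 12920 genes lower. Over 7 alternatives the adjusted p was at most 0.00532 for Pgk1, 0.0196 for Aldoa and 0.0199 for Gapdh. Leaving out Gapdh, chosen after seeing the data, took the input median to -0.10. Leaving out Slc2a1 and Hk2 instead gave medians of -0.27 (control RIP over input), -0.52 (Usp5 guide RIP over input), 0.07 (inputs) and -0.26 (change of recovery). Depth did not limit the members, with at least 1729 reads each; the number of libraries did.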

Other observations

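Gapdh is widely used as a reference transcript, and in these libraries it was among the members that differed most between guides in the inputs. Set relative to Gapdh instead of TMM, 9 of the 9 other members were lower with the Usp5 guide in the inputs, from -0.75 (Aldoa) to -0.23 (Pkm) on the log2 scale, and 9 of 9 were lower between the RIP libraries, from -0.45 (Aldoa) to -0.10 (Pgam1). RIP over input relative to Gapdh was higher for 7 of 9 members with the control guide, from -0.46 (Pgk1) to 0.98 (Slc2a1), and for 9 of 9 with the Usp5 guide, from 0.12 (Pgk1) to 1.36 (Slc2a1). The change of recovery relative to Gapdh was positive for 7 of 9 members, with a median of 0.30, where it was -0.15 over the 10 members with TMM. Most of these counts restate the position of Gapdh itself. Among the well-expressed genes, 97.0% were lower than Gapdh in the inputs and 58.8% between the RIP libraries. For RIP over input, 27.8% were lower than Gapdh with the control guide and 6.74% with the Usp5 guide. For the change of recovery, 4.59% were. The arithmetic relative to Gapdh was chosen after the values were seen, rests on 1 library per group and was not tested.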
